A study of Danio rerio with 2 samples.

Results

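Isolated accessible sites of the zebrafish embryo were taken from ATAC-seq at 4 hpf, just after zygotic genome activation begins. A peak was counted as isolated when more than 25 kb separated it from the adjacent peak on both sides, or on the inner side for the first and last peak of a chromosome. The members were therefore chosen by the gaps between peaks, and 4816 of the 82203 peaks on Chromosomes 1 to 25 met the rule. Both samples were untreated wild-type embryos of the Tubingen strain at 4 hpf, about 300 embryos in each tube. They are 2 biological replicates of 1 group with no control group, and the authors pooled them into 1 peak list. The paper's methods name both Tubingen and Wik for its wild-type fish, without a strain for each experiment. No value per replicate can be given, the depth of each library is unknown, and every spread given here is over peaks or over chromosomes. Zv10 sequence and annotation were not used here, so sites are given by position, without genes or bases.

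In ATAC-seq a transposase cuts DNA that is not covered by nucleosomes, so fragments pile up at promoters, enhancers and other sites where proteins hold DNA open. At zygotic genome activation in zebrafish, the maternal factors Pou5f3, Sox19b and Nanog bind and open many such sites. Enhancers often lie in groups, and a group with very high histone acetylation is called a super-enhancer. A lone site in a long stretch without others may be a distal enhancer, a promoter of a gene with few neighbours, a binding site of a structural protein such as Ctcf, or part of a transposable element. Which of these an isolated peak is cannot be told from its position and score.

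Isolated peaks were weaker and narrower than the other 77387 peaks. Their median score was 108, with the middle 50% between 66 and 211, against 134 (79 to 295) for the others. Scores were assigned by the authors' peak caller, on a scale that is not named, and started at 20. Weak and strong refer here to this score alone, which is not known to measure how open a site is. Their median width was 660 bp (560 to 850 bp), against 740 bp (590 to 1060 bp). The 2 distributions overlapped over most of their range. No peak in either group was narrower than 500 bp, and the shortest gap between 2 peaks was 260 bp. Whether sites closer than that had been joined into wider peaks was not tested. Isolated peaks made up 5.86% of all peaks but 4.94% of the bases in peaks. They held 4.54% of the summed score, or 4.07% when peaks scoring at least 10000 were not counted.

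Differences were compared within chromosomes, as the isolated median minus the median of the other peaks, or as percents for a share of peaks. They were tested 2-sided by permutation, with the sign of every chromosome's difference flipped at random. The log2 score was lower by a mean of -0.31 ± 0.18 (SD, n = 25 chromosomes), a ratio of 0.805, and it was lower on 24 of 25 chromosomes (permutation test, p = 1e-05, adjusted over 4 comparisons p = 1.33e-05). This is the smallest p that 100000 flips can give. Chromosome 10 was the exception, with medians of 149 for isolated and 143 for other peaks. Chromosome 4 had the widest difference, 134 against 238. The log2 width was lower by a mean of -0.17 ± 0.06, a ratio of 0.887, on 25 of 25 chromosomes, with the same p. Peak edges set both the widths and the gaps of the rule, so width is not independent of how members were chosen. With gaps taken from summit to summit the width difference was -0.168. The widths still came from the same called edges, so this setting cannot show that width is independent of the choice. Chromosomes are parts of 1 list and not biological replicates, so these p-values describe that list alone. Compared only with the other peaks in the same 5 Mb, isolated peaks still scored lower, by -0.30 on the log2 scale.

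**Figure D1:**
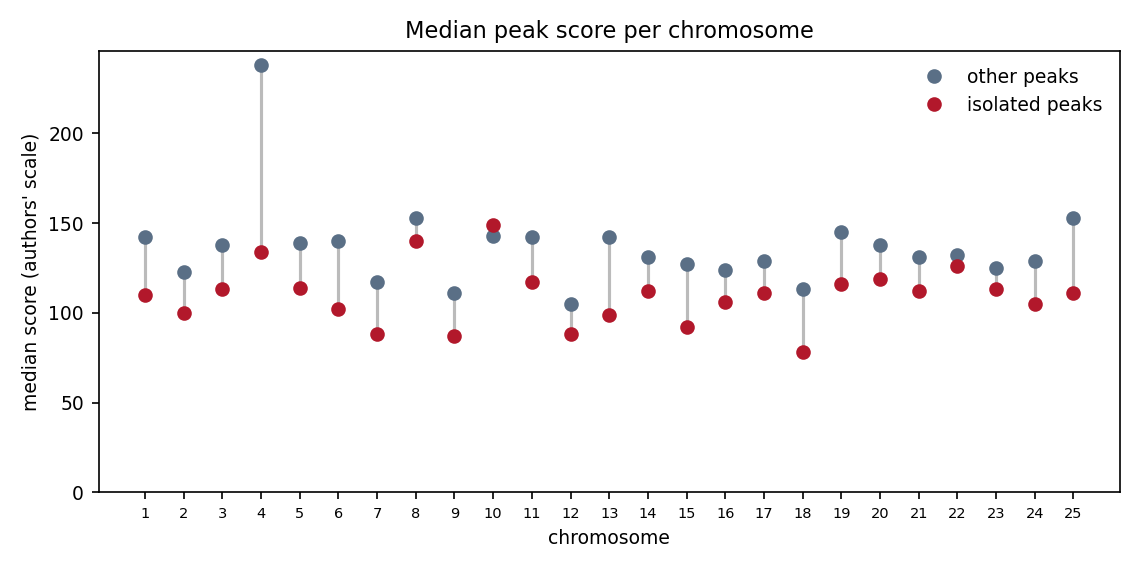
Median score (authors' scale) of isolated and other peaks on each of the 25 chromosomes. Each grey line joins the 2 medians of a chromosome, and the isolated median is the lower one on all except Chromosome 10 (149 against 143).

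Strong peaks were fewer and weak peaks more frequent among the isolated sites. A score of at least 500 was found for 14.9% of all peaks on the chromosomes, and for 409 of the isolated ones, or 8.49%, against 15.3% of the others. Over chromosomes the difference was -7.02 ± 2.61 percentage points (SD, n = 25), lower on 25 of 25 (permutation test, p = 1e-05, adjusted p = 1.33e-05). Among peaks of 500 to 1000 bp alone it was -3.25 points (permutation test, p = 1e-05), with widths not matched inside that range. For a score of at least 1000 the share was 5.65% of all peaks and 2.12% of isolated peaks, 102 in number. At the other end, scores under 50 made up 7.31% of all peaks and 11.8% of the isolated ones. The part of peaks that were isolated was 10.6% for scores of 20 to 40 and 7.11% for 40 to 100. It was level at 5.47% for 100 to 200 and 5.57% for 200 to 500. For 500 to 1000 it was 4.03%, and 2.19% above that. Widths over 1 kb made up 27.3% of all peaks and 15.7% of isolated peaks, 757 in number. Of the 409 isolated peaks scoring at least 500, 276 were at most 1 kb wide. That is 67.5%, against 45.9% of the other peaks with such scores.

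A score difference was also found within a limited range of widths, though widths were not matched inside it. Among peaks of 500 to 1000 bp alone, isolated peaks scored lower by -0.19 on the log2 scale (permutation test, p = 1e-05). Isolated peaks were more often in the narrowest part of this range, and how much of the -0.19 goes with width was not tested. In the narrowest class, 500 to 600 bp, which held 36.6% of isolated and 26.2% of other peaks, the medians were 83 and 94.5. They were 96 and 105 at 600 to 700 bp, and 137 and 142 at 800 to 1000 bp. From 700 to 800 bp the order of the medians was the other way, 123 and 121. Between 1500 and 2000 bp they were 238 and 267, with the upper quartile at 399 for isolated and 677 for other peaks. Score and width rose together in both groups, with a Spearman's rho of 0.334 across the 4816 isolated peaks and 0.382 across the others. These are places in 1 pooled list and share its libraries.

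By distance to the nearest peak, the median score went down until the last class below the 25 kb limit and stayed near that level beyond it. It was 155 for peaks with a neighbour within 1 kb, 135 at 1 to 5 kb, 112 from 5 kb to 0.5 times the limit, and 106 from there to the limit. Beyond the limit the medians were 108 at 25 to 50 kb, 107 at 50 to 100 kb and 105 for the 119 peaks with more than 100 kb on both sides. Widths went down in the same way, from a median of 860 bp within 1 kb to 670 bp in the last class below the limit and 660 bp at 25 to 50 kb, and reached 610 bp over 100 kb. Among isolated peaks alone, the shorter flanking gap had a Spearman's rho of -0.0085 with score and -0.016 with width (n = 4816, across peaks). Among the other peaks it was -0.17 with score.

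**Figure D2:**
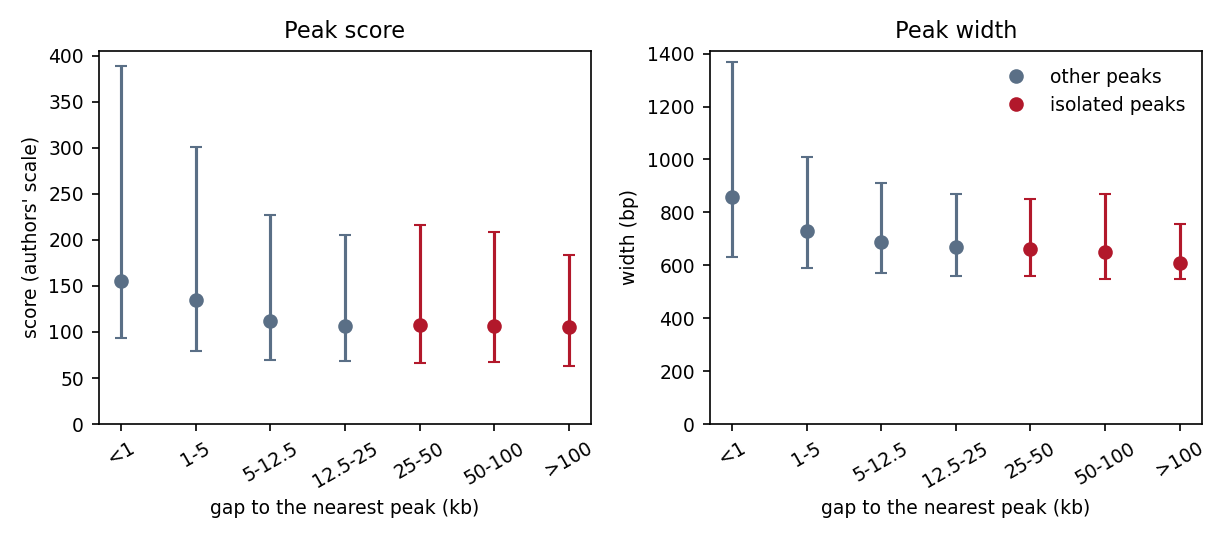
Score (authors' scale) and width (bp) of peaks by the gap to the nearest peak. Points are medians and bars the middle 50% of peaks, and the median score lies at 155 within 1 kb and between 105 and 108 in the 3 classes of isolated peaks.

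Isolated peaks were also set against the 7473 peaks at an intermediate distance, whose nearest neighbour lay between 0.5 and 1 times the 25 kb limit away. The log2 score differed by 0.0059 ± 0.14 (SD, n = 25 chromosomes, 95% interval -0.05 to 0.06), higher on 10 chromosomes and lower on 9 (permutation test, p = 0.833). That interval spans score ratios of 0.965 to 1.04. The log2 width differed by -0.018 (95% interval -0.044 to 0.0082, permutation test, p = 0.168). The share scoring at least 500 differed by -0.83 percentage points (95% interval -1.7 to 0.052, permutation test, p = 0.065). The differences found against all other peaks thus did not pass the test against these, and the score interval lies above the -0.31 found there. At the limit itself, the isolated peaks closest to it had a gap of 25.01 kb, one with a score of 89 on Chromosome 20 (25408851 to 25409420) and one with 232 on Chromosome 7 (48866021 to 48866560). A peak on Chromosome 16 from 22801601 to 22802300 (score 95) was left out with a gap of exactly 25 kb. The 303 isolated peaks within 1 kb above the limit had a median score of 114, and the 326 peaks within 1 kb below it had 106.

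The position of the summit inside a peak differed little. The summit lay a median of 58.5% of the half-width away from the centre in isolated peaks and 55.4% in the others. The difference over chromosomes was 3.03 ± 3.94 percentage points (SD, n = 25), higher on 20 of 25 (permutation test, p = 0.00098, adjusted p = 0.00098). It was 1.52 points when only other peaks of the same 5 Mb were compared, and no longer passed the test (permutation test, p = 0.0678). In both groups summits lay farther out in the narrowest peaks. The median was 64.6% for isolated and 60.4% for other peaks of 500 to 600 bp, and 51.9% and 52.1% for those of 800 to 1000 bp.

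The widths of isolated peaks had a rise in share at 4.5 to 6.5 kb, within a continuous range of widths. This range was chosen after the widths were seen, so it is given with no test. The share of isolated peaks fell steadily with width to 0.311% at 2830 to 3360 bp, then rose to 0.997% at 4760 to 5660 bp before it fell to 0.0415% at 6730 to 8000 bp. The share of the other peaks fell at each of these steps. In all, 82 isolated peaks were 4.5 to 6.5 kb wide, or 1.70%, against 690 of the others, or 0.892%. Of all peaks of this width 10.6% were isolated, compared with 2.50% at 3 to 4.5 kb and 5.86% of all peaks. By distance to the nearest peak, this width made up 1.07% of peaks within 1 kb, 0.619% at 1 to 5 kb, 1.18% in the last class below the limit and 1.73% at 25 to 50 kb. The order thus has its lowest point at 1 to 5 kb.

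**Figure D3:**
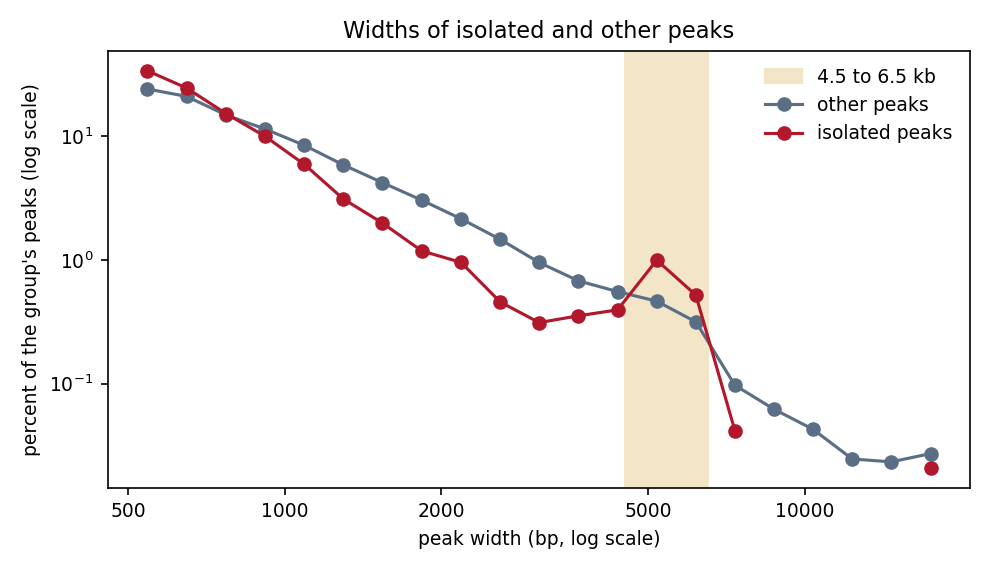
Percent of isolated and of other peaks in width classes, with both axes on a log scale, and classes without a peak left out. The isolated curve lies under the other from 840 to 4760 bp, above it from 4760 to 6730 bp with its highest point there at 0.997%, and under it again beyond. The shaded range is 4.5 to 6.5 kb.

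Most of these wide isolated peaks had scores close to each other, and so did most of the isolated class just below them in width. The median score of the 82 peaks was 160.5, with the middle 50% between 136 and 196. Their full range was wide, from 91 to 13755. The 33 isolated peaks of 3 to 4.5 kb had a median of 173 (139 to 243), against 262 (152 to 924) for other peaks of that width. Of the 82 peaks, 68 scored between 100 and 250. This was 82.9%, against 56.2% of the other peaks of the same width and 33.3% of isolated peaks of all widths. The score range was set around these peaks and not in advance, which favours them, so the shares are given with no test. A score of at least 500 was found for 7 of the 82, against 225 of the 690 others. Over all widths, 8.49% of isolated peaks and 14.9% of all peaks had such scores. The 7 of 82 lie near that isolated share. Isolated peaks of 4.5 to 6.5 kb lay on 22 of 25 chromosomes, with at most 8 on 1 chromosome. The share of this width was higher among isolated than among other peaks on 18. Chromosomes 10, 11 and 19 had none. Their summits were spread along the whole peak, with 20, 19, 24 and 19 in 4 successive parts of equal length. Their median distance to the nearest peak was 33.6 kb, against 36.0 kb for all isolated peaks.

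Examples of similar width and score were found far apart. On Chromosome 1 such a peak lay from 11766911 to 11772190 (5280 bp, score 155). Another of the same chromosome lay from 13141251 to 13147010 (5760 bp, score 169). On Chromosome 12 there was one from 35050421 to 35056410 (5990 bp, score 157), and on Chromosome 15 one from 7822121 to 7827860 (5740 bp, score 160). The shorter gap beside these 4 peaks was 49.8, 38.3, 31.0 and 44.3 kb, in that order. These 4 were picked after their values were seen, and the sequence under them was not examined.

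**Figure D4:**
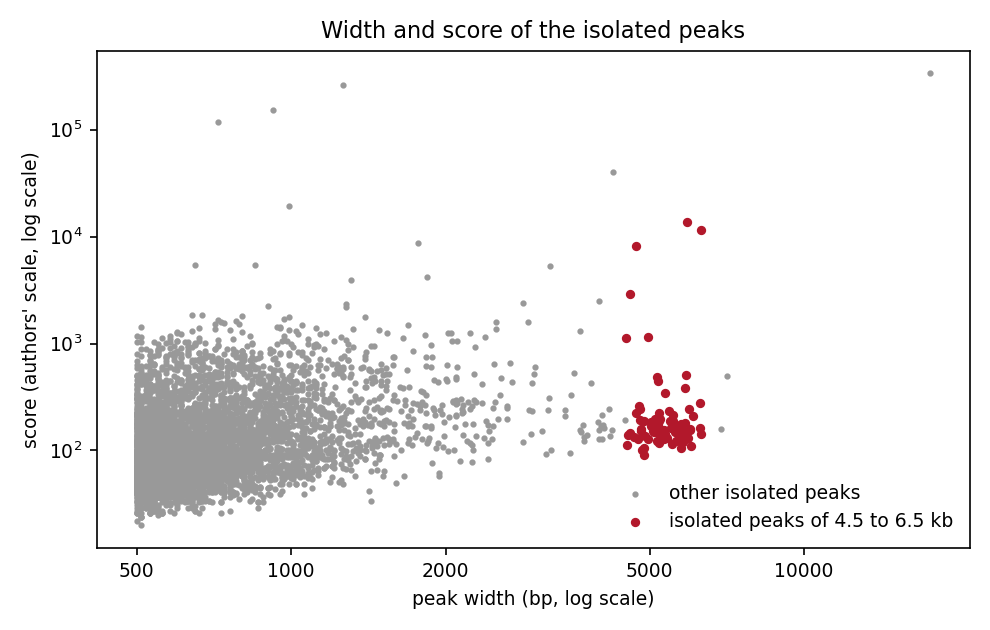
Width (bp) and score (authors' scale) of each of the 4816 isolated peaks, with both axes on a log scale. Of the 82 peaks of 4.5 to 6.5 kb, 68 score between 100 and 250, and 33 isolated peaks lie just below this range at 3 to 4.5 kb.

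A score of at least 10000 was found for 179 peaks, or 0.218% of all peaks on the chromosomes, and for 8 isolated ones, or 0.166%. Isolated peaks were thus 4.47% of such peaks, near their 5.86% of all peaks. The isolated peak with the highest score lay on Chromosome 4 from 76314031 to 76331650 (score 336679), was also the widest isolated peak at 17620 bp, and had gaps of 50.2 and 142.6 kb. The next, with a score of 264205, was the first peak of Chromosome 24, from 11 to 1270, with 32.5 kb to its only neighbour. The third, on Chromosome 21 from 44162481 to 44163400 (score 152183), was 920 bp wide. The fourth, on Chromosome 5 from 59680661 to 59681380 (score 118967), was 720 bp wide. The fifth was on Chromosome 11 from 29700311 to 29704560 (score 40090). Places 6, 7 and 10 by score were again on Chromosome 4 and started at 5848901 (score 19419), 71197141 (score 13755) and 66662681 (score 8132). The eighth was the last peak of Chromosome 20, from 55333201 to 55339500 (score 11473), and the ninth lay on Chromosome 21 from 42195011 to 42196780 (score 8661). Places 7, 8 and 10 were 5910, 6300 and 4710 bp wide, so they belong to the isolated peaks of 4.5 to 6.5 kb. Of these 10 peaks, 6 thus lay on Chromosome 4 or were the outermost peak of another chromosome, and 4 lay inside Chromosomes 5, 11 and 21. After the widest peak came 7080 bp on Chromosome 7 from 7630111 (score 493) and 6900 bp on Chromosome 23 from 14404091 (score 158). Then came the last peak of Chromosome 20, at 6300 bp, and 6290 bp on Chromosome 9 from 37000561 (score 143). The lowest score, 20, belonged to a peak of 510 bp on Chromosome 18 from 45420921 to 45421430.

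Gaps around isolated peaks were long and uneven. The shorter of the 2 gaps had a median of 36.0 kb, with the middle 50% between 29.4 and 49.4 kb, against a nearest gap of 2.21 kb for the other peaks. The longer gap had a median of 66.7 kb (46.3 to 100.3 kb) and reached 712 kb. The longer was a median of 1.58 times the shorter. More than 50 kb on every counted side was found for 1166 isolated peaks, or 24.2%, and more than 100 kb for 119, or 2.47%. The most remote peak, by its shorter gap of 225.6 kb, was 530 bp wide with a score of 73, on Chromosome 17 from 19705191 to 19705720. The next lay on Chromosome 8 from 5515891 (221.5 kb, score 180) and again on Chromosome 17 from 47322671 (214.1 kb, score 73). They were followed by peaks on Chromosome 13 from 34034231 (211.6 kb, score 43) and on Chromosome 19 from 39476391 (207.9 kb, score 390). All 5 were 530 to 710 bp wide and none scored above 500, which is common among isolated peaks. Of all isolated peaks 8.49% scored at least 500, and their median width was 660 bp. Stretches of unknown bases in Zv10 were not looked up, so the gaps may hold some.

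Together, the stretches from neighbour to neighbour around isolated peaks spanned 483 Mb, or 36.0% of the 1340 Mb that the 25 chromosomes cover when each is measured to its final peak. The peaks themselves filled 0.860% of that length. There were 14703 gaps over 25 kb, and 7835 of them, or 53.3%, had an isolated peak on at least one side. The remaining gaps lay between peaks that each had a close neighbour on their other side.

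Runs of isolated peaks are described here with no reference value, since a gap that isolates a peak already meets the rule on one side for its neighbour. Isolated peaks formed 3024 runs without a non-isolated peak between them, of which 1947 were a single isolated peak. The other 1077 runs held 2869 peaks, or 59.6% of isolated peaks, and 70 runs held at least 5. The longest run, 11 peaks in 658 kb, lay on Chromosome 1 from 14950711 to 15608330. It opened with a peak of 5090 bp (score 148), and its scores ran from 50 to 2399 with a median of 65. The strongest, at 2399, was 2830 bp wide. The next longest, both of 9 peaks, lay on Chromosome 4 (27243531 to 28248670, scores of 27 to 297) and Chromosome 12 (45926791 to 46487240, scores of 51 to 1066). Single isolated peaks between clusters had a median score of 105 and those in runs of at least 5 had 116. Scores of neighbouring isolated peaks had a Spearman's rho of 0.0048 over 1792 adjacent pairs, which gives no order between them.

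Along chromosomes, isolated peaks were rarest at the ends and most frequent a few Mb inside. The rule itself leaves less room for them where peaks are dense. Within 0.5 Mb of an end there were 1.32 isolated peaks per Mb, 33 in all, or 0.890% of the peaks there. The density went to 3.00 per Mb at 0.5 to 1 Mb, 4.53 at 2 to 5 Mb and 4.44 at 5 to 10 Mb, and down to 2.80 beyond 20 Mb. The density of all peaks was lowest where isolated peaks were frequent, 46.8 per Mb at 5 to 10 Mb. The median distance from the nearest end was 11.5 Mb for isolated and 15.2 Mb for other peaks. The 33 isolated peaks of the outer 0.5 Mb had a median score of 210, against 146 for the other peaks there, while from 0.5 Mb inward isolated medians were 104 to 114 and those of other peaks 121 to 137. Among these 33 were 5 first or last peaks that needed only 1 gap, 2 of which scored over 10000. The isolated peak with the highest score, on Chromosome 4 from 76314031, was also among the 33 and had both gaps. The far end of a chromosome was taken as the end of its final peak.

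**Figure D5:**
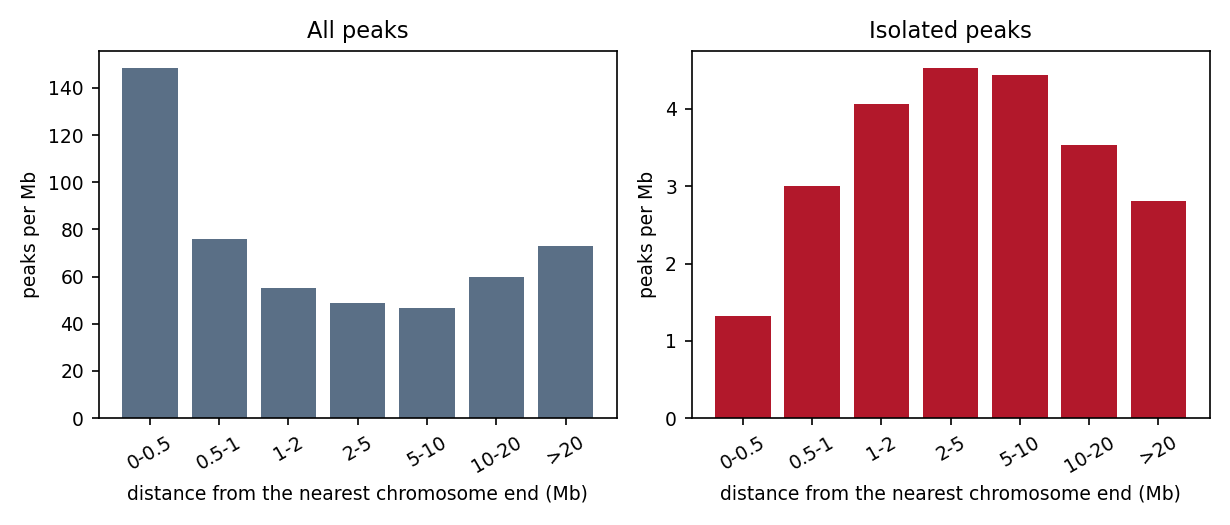
Peaks per Mb by distance from the nearest chromosome end (Mb) for all peaks and for isolated peaks over Chromosomes 1 to 25. All peaks are densest in the outermost 0.5 Mb at 148 per Mb, where isolated peaks are sparsest at 1.32 per Mb.

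Chromosomes differed in their share of isolated peaks more than in their number per Mb. The share ran from 3.12% on Chromosome 9 to 10.4% on Chromosome 10 with a median of 5.91%. The number per Mb ran from 2.50 to 4.61 on the same 2 chromosomes, with a median of 3.52. Chromosome 8, with 10.2%, was close to Chromosome 10, and these 2 chromosomes had the lowest density of other peaks, 39.7 and 39.8 per Mb. Their isolated peaks also had the highest median scores, 140 and 149, and the lowest, 78, was on Chromosome 18. In 257 full bins of 5 Mb there were 4 to 37 isolated peaks, with a median of 18. The part of each chromosome beyond its last full bin was not counted in these bins. In the 65 bins with the fewest peaks 12.8% of peaks were isolated, and in the 64 bins with the most 2.65%. The rule leaves less room for isolated peaks where peaks are dense. This order, and the high shares of Chromosomes 8 and 10, are therefore no separate result. Isolated medians of score were 118, 107, 102 and 100 over 4 classes of bins from the sparsest to the densest, against 137, 135, 130 and 134 for other peaks. These classes pool bins of chromosomes with different score levels, and the order within chromosomes was not examined. The bin with the most isolated peaks lay on Chromosome 8 from 10 to 15 Mb, with 37 of 148 peaks, followed by Chromosome 13 from 5 to 10 Mb, with 36 of 237, and Chromosome 17 from 0 to 5 Mb, with 34 of 179. Bins with 4 isolated peaks lay on Chromosomes 4, 9, 12 and 18, that on Chromosome 4 from 45 to 50 Mb among 644 peaks.

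Chromosome 4 was split by its position. Up to 25 Mb, 127 of 828 peaks were isolated, or 15.3%, with a median score of 146 against 289 for the other peaks. Beyond 25 Mb, 139 of 3851 were isolated, or 3.61%, with a median score of 111 against 228. On both sides of 25 Mb the isolated medians were thus within the range of the other chromosomes (78 to 149), while those of the other peaks were above theirs (105 to 153). Peaks were sparser up to 25 Mb than beyond it, and the rule leaves less room for isolated peaks where peaks are dense. The shares of 15.3% and 3.61% are therefore no separate result. Without Chromosome 4, isolated peaks still scored lower than others, by -0.29 on the log2 scale. In the region of Chromosome 18 from 20 to 30 Mb, 22 of 823 peaks were isolated, or 2.67%.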

How the data were processed

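ATAC-seq was done on 2 biological replicates of wild-type zebrafish embryos at 4 hpf. Alignment to Zv10 by the authors used Novoalign, listed as version 3.8 in the submitters' processing notes, with 1 random placement for reads that matched several. SAMtools joined technical replicates. Only fragments between 30 and 120 bp entered the peak calling, done by the Multi-Replica Macs ChIPSeq Wrapper (cutoff 2) on both replicates pooled and scaled to the smaller depth. The methods and the peak names use different terms for the handling of duplicate reads, so whether they were removed is not settled here. The deposited list gives positions, a score and a summit for each peak. The score is the authors' value, with no scale named. Columns for fold enrichment and p-values hold only 0.

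Starts are counted from 1. Gaps ran from the end of a peak to the start of the next. Medians, or percents for the share scoring at least 500, were compared within each of 25 chromosomes by 100000 sign flips (2-sided permutation test). Benjamini-Hochberg adjustment was made over 4 comparisons. Intervals of 95% use the t distribution over chromosomes. The procedure was tested on simulated data. The members and classes were chosen with earlier results of these data known. Named places were the 10 highest scores, 5 widest peaks, 5 longest shorter gaps (both gaps known), 3 longest runs and peaks at the limit. The wide peaks of 4.5 to 6.5 kb, the 5 Mb bins and any further places were picked once their values had been seen. Alternatives changed the gap limit, the peaks entering and the comparison group. Software was scipy 1.17.1, numpy 2.4.6 and pandas 2.3.3 under Python 3.11.15, with plots from matplotlib 3.10.9.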

Additional observations from a re-analysis of the deposited data

How the results depend on the processing

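The number of isolated peaks was 1166 with a gap limit of 50 kb, which follows from the limit, and between 4550 and 6797 under the 7 other settings. Against only the peaks whose neighbour lay between 0.5 and 1 times the 25 kb limit away, the difference in log2 score turned to 0.0059, and those in log2 width (-0.018), in the share scoring at least 500 (-0.83 percentage points) and in summit offset (0.16 points) no longer passed the test. The summit offset was also no longer past the threshold against other peaks of the same 5 Mb, at 1.52 points. The cause was not tested. Under the remaining settings the score difference lay between -0.33 and -0.19 on the log2 scale, the width difference between -0.19 and -0.15, the share between -8.26 and -3.25 points and the summit offset between 2.02 and 5.21 points, with the same direction and side of the threshold. Settings without widths of 4.5 to 6.5 kb and without scores under 50 were added after seeing the data. No paired analysis was possible because the list pools the 2 replicates of a single group, and neither replicate could be left out. Depth is unknown, so whether weak sites between isolated peaks were missed cannot be stated.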
